A study of Homo sapiens with 12 samples.

Results

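The genes described here encode the eIF4F translation initiation complex, its regulators and its helicase cofactors. They are 10 of the 57820 gene IDs in the count files and were taken by name: EIF4E, EIF4G1, EIF4G2, EIF4G3, EIF4A1, EIF4A2, EIF4B, EIF4H, EIF4EBP1 and EIF4EBP2. EIF4H was chosen by the inclusion of one of its exons, which was lower in hypoxia, so its hypoxia values are given as a description with no test. The other 9 were chosen by name alone. The event files list 200 splicing events of these genes among 56092 in all.

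The RNA came from AsPC-1, an established human pancreatic ductal adenocarcinoma cell line grown from ascites, and all 12 libraries are of this 1 line. Transfection was with siARNT, which targets ARNT, or with a scrambled control (siControl). A day later each culture was divided and spent 24 h at 1% O2 (hypoxia) or stayed at 21% O2 (normoxia), and RNA was taken 48 h after transfection. The 2 siRNAs at the 2 oxygen levels make 4 groups, each with replicates A, B and C. The labels do not say that replicates were separate cultures beyond separate wells, so p-values measure the spread between these samples.

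Cap-dependent translation starts when eIF4E binds the cap at the 5′ end of an mRNA. eIF4E joins the scaffold eIF4G and the RNA helicase eIF4A as eIF4F, and eIF4B and eIF4H stimulate the helicase. The 4E-binding proteins, encoded by EIF4EBP1 and EIF4EBP2, compete with eIF4G for eIF4E, and mTORC1 releases that block by phosphorylating them. Low oxygen is known to slow protein synthesis, partly through mTORC1. ARNT pairs with HIF alpha subunits to form the HIF factors, which activate genes in hypoxia. RNA levels, as measured here, do not show how these proteins are modified or how active they are.

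The libraries hold 38.53 to 84.34 M reads assigned to genes. The targeted gene, ARNT, was at 60.7, 63.6 and 63.0 CPM (counts per 1 M assigned reads, scaled by TMM) in normoxia siControl and at 13.3, 12.8 and 14.0 in normoxia siARNT, a log2 change of -2.22 (edgeR adjusted p = 8.99e-09). It was at 70.3, 64.9 and 72.2 CPM in hypoxia siControl and at 16.0, 15.8 and 14.1 in hypoxia siARNT, a log2 change of -2.17 (edgeR adjusted p = 2.65e-09). The 8 epithelial markers summed to 5910 to 10000 CPM in each library, though KRT7 alone was at 1.1 to 4.01. Among leukocyte markers LYZ was at 130 to 229 CPM, with PTPRC at 0.0937 or less and CD3E at 0 in all libraries, and the endothelial, fibroblast and acinar or islet sums stayed below 1 CPM. The libraries also differed in how gene level depended on GC content. This GC slope ran from -0.205 to 0.238 in 11 libraries and reached 0.424 log2 units per 10 points of gene GC in normoxia siARNT replicate B.

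A gene is said to be called where the Benjamini-Hochberg adjusted p of edgeR's quasi-likelihood test was under 0.05 over 16999 genes. Hypoxia in siControl called 3 of the 9 members with a test (2 higher, 1 lower), beside 25.3% of all genes (10.4% higher, 14.9% lower). Hypoxia in siARNT called 0 of 9 with edgeR, beside 4.09% of all genes (2.21% higher, 1.89% lower), and DESeq2 called 1, EIF4EBP2. The unadjusted edgeR p was under 0.05 in 3 of the 9 (EIF4A2, EIF4B and EIF4EBP2), beside 3605 of all 16999 genes. ARNT knockdown in normoxia called 2 of 10 members (1 higher, 1 lower), beside 20.2% of all genes (9.42% higher, 10.8% lower). ARNT knockdown in hypoxia called 3 of 10 (1 higher, 2 lower), beside 29.1% of all genes (14.4% higher, 14.7% lower). The interaction test, of siARNT against siControl in their hypoxia changes (positive where the change is higher in siARNT), called 0 of 9 with edgeR or DESeq2, beside 4.69% of all genes (2.49% higher, 2.19% lower). There 1 of the 9, EIF4E, had an unadjusted edgeR p under 0.05, beside 3543 of all 16999 genes. The 4 pairwise comparisons share their groups with each other, so their values are given side by side and not as independent results. These shares of members called lie close to those of all genes, so the counts are no result about the members.

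**Figure D1:**
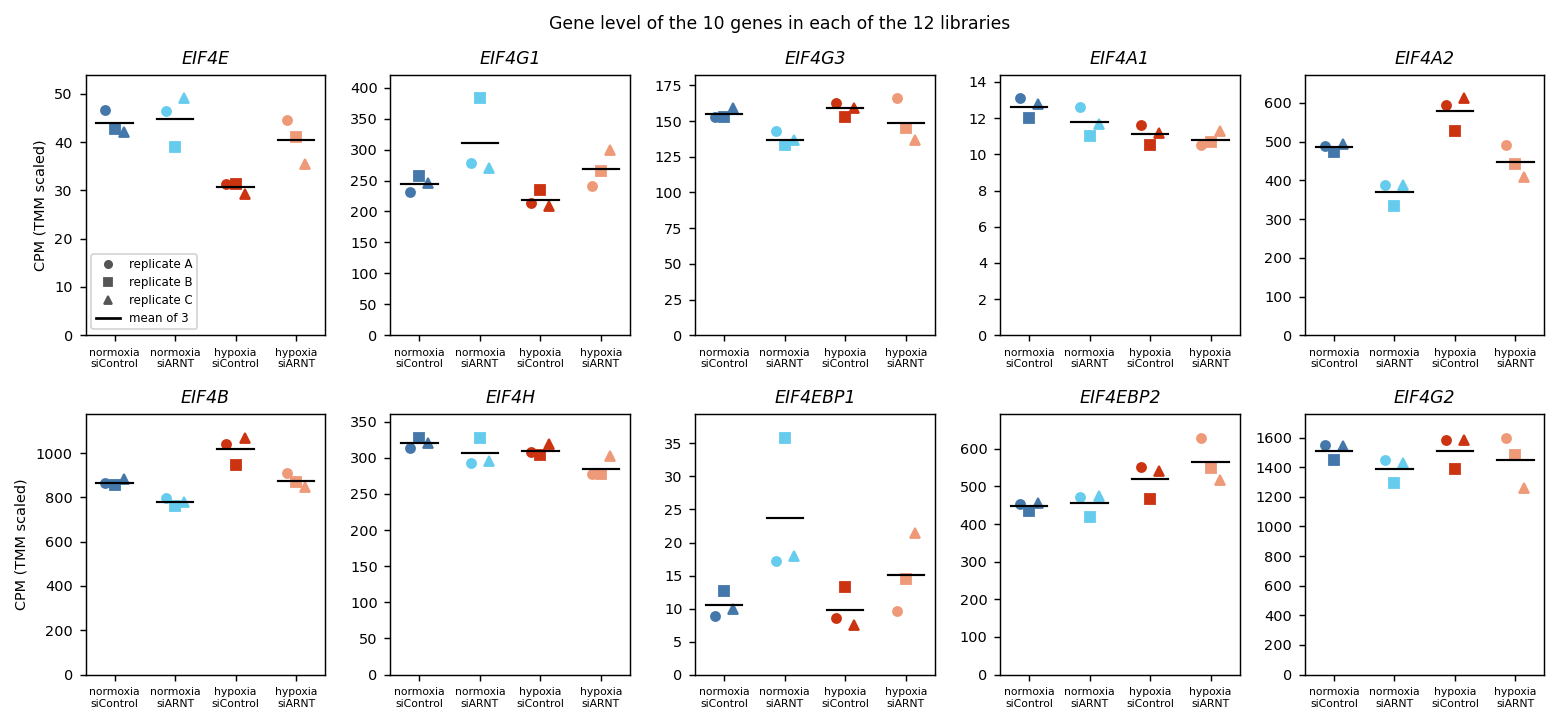
Level of each of the 10 genes in every library, in TMM-scaled CPM from 0, with circles, squares and triangles for replicates A, B and C and a bar for the mean of 3. EIF4E was lowest in all 3 libraries of hypoxia siControl (29.2 to 31.4 CPM), and EIF4EBP1 and EIF4G1 were highest in normoxia siARNT replicate B (35.9 and 383 CPM).

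EIF4E, the cap-binding subunit (chr4:98871684-98930637, minus strand, GRCh38), was lower in hypoxia with the control siRNA and higher with ARNT knockdown in hypoxia. In normoxia siControl it was at 46.7, 42.8 and 42.1 CPM (mean 43.9 ± 2.46 SD, n = 3). In hypoxia siControl it was at 31.3, 31.4 and 29.2 CPM (mean 30.7 ± 1.28 SD, n = 3). The 2 groups did not overlap, and EIF4E fell by 0.52 on the log2 scale (SE 0.10, edgeR adjusted p = 0.0026), a level 1.43-fold lower. In 46.8% of all genes these 2 groups did not overlap.

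With siARNT, EIF4E was at 46.5, 38.9 and 49.1 CPM in normoxia (mean 44.8 ± 5.33 SD, n = 3). It was at 44.6, 41.0 and 35.5 CPM in hypoxia (mean 40.4 ± 4.57 SD, n = 3). These 2 groups overlapped, and the log2 change of -0.15 was not called (edgeR adjusted p = 0.418). Between the hypoxic groups every siARNT library was above every siControl library, and EIF4E rose by 0.40 (SE 0.10, edgeR adjusted p = 0.0105) with knockdown, 1.32-fold. Groups did not overlap in 40.3% of all genes in that comparison. In normoxia the knockdown change was 0.03 and not called (edgeR adjusted p = 0.839). The test of the difference between the hypoxia changes gave 0.37 (SE 0.14, 95% interval 0.042 to 0.69, unadjusted p = 0.0233, edgeR adjusted p = 0.166), so the difference was not called. Reads over the EIF4E splice junctions, which the event files give from the same libraries and so not as independent support, had the same low group: 16.1, 15.3 and 16.8 per 1 M assigned reads in hypoxia siControl, against 18.1 to 26.8 in the other 9 libraries.

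The 4E-binding proteins differed from each other. EIF4EBP1, the best studied eIF4E inhibitor, had low counts and was the only member called higher with ARNT knockdown in normoxia in this test. It was at 8.89, 12.7 and 10.0 CPM in normoxia siControl (mean 10.5 ± 1.96 SD, n = 3). In normoxia siARNT it was at 17.2, 35.9 and 18.0 CPM (mean 23.7 ± 10.6 SD, n = 3). The groups did not overlap, as in 46.5% of all genes, and the log2 rise was 1.17 (SE 0.35, 2.25-fold, edgeR adjusted p = 0.0372).

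Replicate B, the highest value, is also the library with the GC slope of 0.424, and EIF4EBP1 has the highest GC content of the members, 65.5%. Without that library the rise was 0.73 (edgeR adjusted p = 0.118). The call was also lost without replicate A, B or C of normoxia siControl (adjusted p = 0.136, 0.0578 and 0.119), replicate A of hypoxia siControl (0.0531) or replicate B of hypoxia siARNT (0.0551). With no low count filter it was lost as well (edgeR adjusted p = 0.136). With a correction for gene GC content in each library the rise was 0.37 and called, and the adjusted p of the alternatives lay between 2.24e-04 and 0.136. In hypoxia EIF4EBP1 was at 8.49, 13.2 and 7.53 CPM in siControl and at 9.58, 14.4 and 21.4 in siARNT, and the groups overlapped. That change of 0.63 was not called (edgeR adjusted p = 0.208), nor were the hypoxia changes of -0.11 in siControl and -0.65 in siARNT (edgeR adjusted p = 0.851 and 0.311).

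EIF4EBP2, a second 4E-binding protein (chr10:70404379-70428618, plus strand, GRCh38), was at levels near those of EIF4A2. It was at 452, 435 and 455 CPM in normoxia siControl and at 551, 467 and 542 in hypoxia siControl. In siARNT it was at 473, 420 and 474 CPM in normoxia and at 630, 549 and 516 in hypoxia. Each hypoxic library was above each normoxic one of its siRNA, as in 46.8% and 22.2% of all genes, and the log2 changes were 0.22 and 0.31 (edgeR adjusted p = 0.0891 and 0.0676), neither of them called. With the replicate letter as a block, the siControl change was 0.21 and called (edgeR adjusted p = 0.04, range over the alternatives 1.02e-04 to 0.271). Of the letters, only B was set apart by its correlation between these 2 siControl groups. Without replicate B of hypoxia siControl, the lowest of the 3 hypoxic values, the siControl change was 0.30 and called (edgeR adjusted p = 0.0296), as was the siARNT change at 0.32 (0.0433). ARNT knockdown gave 0.03 in normoxia and 0.12 in hypoxia, neither called (edgeR adjusted p = 0.848 and 0.341).

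Of the helicases, EIF4A2 (chr3:186783205-186789900, plus strand, GRCh38) fell with ARNT knockdown under both oxygen levels. It was at 489, 473 and 493 CPM in normoxia siControl and at 388, 334 and 389 in normoxia siARNT. The groups did not overlap, and EIF4A2 fell by 0.39 (SE 0.085, 1.31-fold lower, edgeR adjusted p = 0.00847).

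In hypoxia EIF4A2 was at 594, 528 and 612 CPM in siControl and at 490, 443 and 408 in siARNT, again with no overlap. It fell by 0.37 there (SE 0.085, 1.29-fold lower, edgeR adjusted p = 0.00615). Both knockdown calls held in every alternative run. Hypoxia in siControl raised EIF4A2 by 0.25 (SE 0.084, 1.19-fold, edgeR adjusted p = 0.046), a call that 10 of 21 alternatives ended (adjusted p from 3.46e-06 to 0.15, value from 0.21 to 0.33). Among them were both DESeq2 scalings and each fit without 1 of 8 libraries: A, B or C of normoxia siControl, A or C of normoxia siARNT, A or C of hypoxia siControl and B of hypoxia siARNT. In siARNT the hypoxia change of 0.27 was not called (edgeR adjusted p = 0.0916), and these groups did not overlap either.

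EIF4A1, the other cytoplasmic eIF4A helicase (chr17:7572706-7579005, plus strand, GRCh38), had the lowest gene count per length of the members. It was at 13.1, 12.0 and 12.8 CPM in normoxia siControl and at 11.6, 10.5 and 11.2 in hypoxia siControl. With siARNT it was at 12.6, 11.0 and 11.7 CPM in normoxia and at 10.5, 10.7 and 11.3 in hypoxia. None of its changes was called: -0.19 and -0.12 in hypoxia with siControl and siARNT, and -0.10 and -0.04 with knockdown in normoxia and hypoxia.

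This count cannot stand for the level of EIF4A1. The gene count was 457 to 1080 reads a library, while the event files hold 26749 to 61490 reads over the junctions of the same gene, 48.9 to 69.6 for each counted read. In GENCODE 29, 5 annotated genes overlap EIF4A1 on its strand. The readthrough gene SENP3-EIF4A1 overlaps 6010 of the 6300 bases of EIF4A1 but is not among the counted gene IDs. AC016876.2 overlaps 6180 bases and was counted, at 55 to 181 reads a library. Whether the counting left out reads that fit more than 1 gene was not tested.

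Junction reads of EIF4A1 were at 641, 695 and 677 per 1 M assigned reads in normoxia siControl and at 592, 576 and 574 in hypoxia siControl. They were at 719, 765 and 701 in normoxia siARNT and at 644, 627 and 670 in hypoxia siARNT. In place of the gene count, a choice made after the low count was seen, they gave a fall of 0.21 with hypoxia in siControl (SE 0.055, edgeR adjusted p = 0.0149). The other junction-based changes were not called: -0.17 for hypoxia in siARNT (edgeR adjusted p = 0.10), 0.12 for knockdown in normoxia (0.135) and 0.16 for knockdown in hypoxia (0.052). The 2 knockdown values have the opposite sign to those of the gene count.

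EIF4B, an RNA-binding cofactor of eIF4A (chr12:53006158-53042209, plus strand, GRCh38), had the second highest level of the members by gene count. It was at 864, 854 and 881 CPM in normoxia siControl (mean 866 ± 13.4 SD, n = 3). In hypoxia siControl it was at 1040, 944 and 1070 CPM (mean 1020 ± 65.6 SD, n = 3). The groups did not overlap, and EIF4B rose by 0.23 (SE 0.058, 1.17-fold, edgeR adjusted p = 0.0114). The call was lost without replicate A or C of hypoxia siControl (adjusted p = 0.0585 and 0.0599, range over the alternatives 2.33e-05 to 0.0599).

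In hypoxia siARNT, EIF4B was at 911, 867 and 847 CPM, below all 3 hypoxia siControl libraries. ARNT knockdown in hypoxia lowered it by -0.22 (SE 0.058, 1.16-fold lower, edgeR adjusted p = 0.0143). This call was lost in 5 of 20 alternatives, among them without replicate A or C of hypoxia siControl or B of hypoxia siARNT (adjusted p = 0.0652, 0.0673 and 0.0568, range over the alternatives 1.21e-04 to 0.0741). In normoxia siARNT it was at 799, 760 and 779 CPM, below all 3 siControl libraries, but the change of -0.15 was not called (edgeR adjusted p = 0.0775, and 0.033 without replicate B of hypoxia siControl). The hypoxia change in siARNT, 0.17, was not called either (edgeR adjusted p = 0.124), but was under total count scaling (0.19) and under the GC correction (0.10). With that correction the knockdown change in normoxia was -0.057, not called.

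EIF4H, which shares with eIF4B the stimulation of eIF4A (chr7:74174245-74197101, plus strand, GRCh38), had an even gene level. It was at 314, 328 and 321 CPM with siControl and 293, 328 and 295 with siARNT in normoxia, and at 308, 304 and 319 with siControl and 277, 277 and 302 with siARNT in hypoxia. Between the oxygen levels the log2 difference was -0.05 in siControl and -0.10 in siARNT. With knockdown it was -0.07 in normoxia and -0.12 in hypoxia, neither called (edgeR adjusted p = 0.413 and 0.158).

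As tested with edgeR and no correction for GC content, no eIF4G gene was called in any comparison. EIF4G1, the main eIF4G (chr3:184314495-184335358, plus strand, GRCh38), was at 231, 258 and 246 CPM in normoxia siControl and at 279, 383 and 270 in normoxia siARNT. It was at 213, 234 and 209 CPM in hypoxia siControl and at 241, 266 and 299 in hypoxia siARNT. Every siARNT library was above every siControl library at the same oxygen level, with log2 changes of 0.34 and 0.30 that were not called (edgeR adjusted p = 0.0685 and 0.0939). With the replicate letter as a block, the change in normoxia was 0.33 and called (edgeR adjusted p = 0.0347, range over the alternatives 0.0347 to 0.703). It was also called by DESeq2, with no low count filter and without replicate C of normoxia siARNT. Same-letter samples of the normoxic groups correlated positively, but different letters were not compared between them. The change in hypoxia was called without replicate B of normoxia siARNT or A of hypoxia siARNT (edgeR adjusted p = 0.00995 and 0.0474).

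EIF4G1 has a GC content of 57.4%, and its highest library is again normoxia siARNT replicate B. With the GC correction its knockdown change was 0.03 in normoxia, not called, and 0.26 in hypoxia, called. The hypoxia changes of EIF4G1 were -0.17 in siControl and -0.21 in siARNT, neither called (edgeR adjusted p = 0.367 and 0.365). With the GC correction they were -0.30, called, and -0.06, not called.

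EIF4G3, a second eIF4G (chr1:20806292-21176888, minus strand, GRCh38), stayed within 133 to 166 CPM over the 12 libraries. No change of it was called, and the nearest was -0.17 with knockdown in normoxia (edgeR adjusted p = 0.0911, and 0.0381 without replicate A of hypoxia siARNT). EIF4G2 (chr11:10797050-10809110, minus strand, GRCh38), also called DAP5 or p97, lacks the eIF4E-binding part of eIF4G. By gene count, which is not a measure of EIF4A1, it had the highest level of the members at 1260 to 1600 CPM, and none of its changes was called: 0.00 and 0.05 in hypoxia with siControl and siARNT, and -0.12 and -0.07 with knockdown in normoxia and hypoxia.

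**Figure D2:**
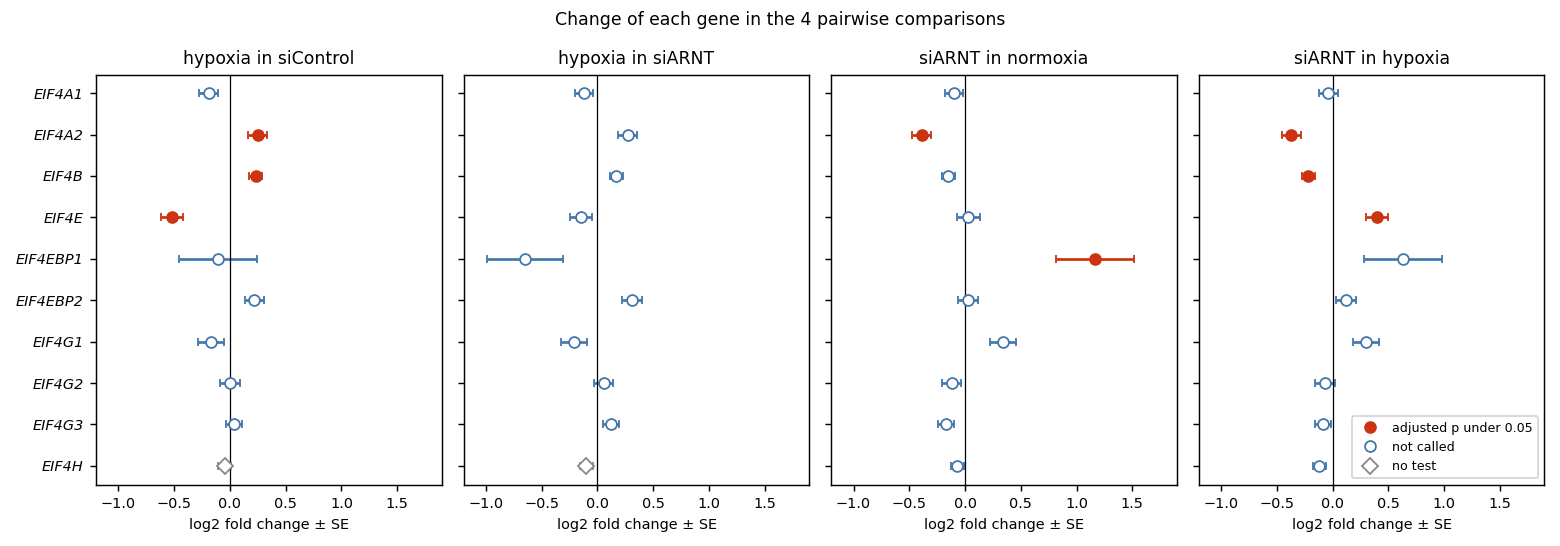
Log2 fold change of each gene with its SE in the 4 pairwise comparisons, filled where the adjusted p was under 0.05 and as a diamond where no test is given. EIF4A2 lies left of 0 in both knockdown comparisons (-0.39 and -0.37), and EIF4E lies left of 0 with hypoxia in siControl (-0.52) and right of it with knockdown in hypoxia (0.40).

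Divided by the length of their merged exons in GENCODE 29, the levels fell into a wide order. The median over the 12 libraries, in CPM per kilobase, was 169 for EIF4G2 (145 to 185), 141 for EIF4B (124 to 174) and 95.9 for EIF4H (86.7 to 103). It was 78.5 for EIF4A2 (54.4 to 99.8) and 65.2 for EIF4EBP2 (57.8 to 86.8). Below these came EIF4G1 at 30.6 (25.3 to 46.3), EIF4G3 at 15.9 (13.8 to 17.3) and EIF4EBP1 at 12.1 (7.02 to 33.5). EIF4E at 2.95 (2.08 to 3.49) and EIF4A1 at 2.16 (1.97 to 2.47) were last, the latter with the limit on its count given above. The merged exons of EIF4E have 14067 bases, the most of the members, and those of EIF4EBP1 have 1073. Before division by length EIF4E was the higher of these 2, at a mean of 39.9 CPM against 14.8, so their order depends on the length used. The ranges per kilobase of EIF4G2 and EIF4B, EIF4H and EIF4A2, EIF4A2 and EIF4EBP2, EIF4G3 and EIF4EBP1, and EIF4E and EIF4A1 overlapped. Those of EIF4B and EIF4H, EIF4EBP2 and EIF4G1, EIF4G1 and EIF4G3, and EIF4EBP1 and EIF4E did not.

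**Figure D3:**
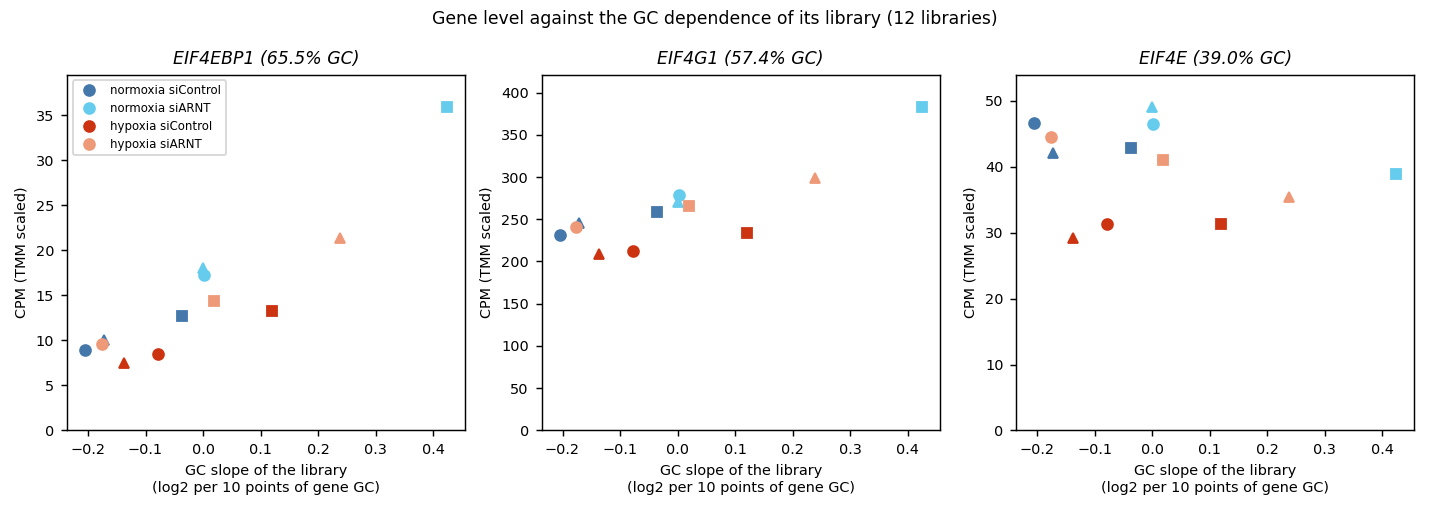
CPM of EIF4EBP1, EIF4G1 and EIF4E in each library against the library's GC slope in log2 units per 10 points of gene GC, coloured by group, with circles, squares and triangles for replicates A, B and C. EIF4EBP1 and EIF4G1 are highest, at 35.9 and 383 CPM, in the library with the highest slope, 0.424, though hypoxia siControl replicate B, at a slope of 0.12, has only 13.2 and 234 CPM, while EIF4E is lowest in hypoxia siControl at slopes from -0.137 to 0.12.

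Gene GC content was used as a correction because the slope differed within and between groups. With it the tests called 6 of 9 members for hypoxia in siControl (42.1% of all genes), 5 of 9 for hypoxia in siARNT (22.7%), 5 of 10 for knockdown in normoxia (32%), 7 of 10 for knockdown in hypoxia (45.8%) and 3 of 9 for the interaction (17.9%). EIF4E was then called in all 5 comparisons, at -0.47, -0.22, 0.19 and 0.44 in the 4 pairwise ones and 0.25 in the interaction. The other members called in the interaction were EIF4B at -0.14 and EIF4G1 at 0.24. EIF4A2 was called in the 4 pairwise ones, at 0.29, 0.21, -0.23 and -0.32, with the same signs as without the correction.

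EIF4EBP1 with the correction was lower in hypoxia, at -0.46 in siControl and -0.37 in siARNT, and higher with knockdown, at 0.37 in normoxia and 0.47 in hypoxia, all 4 called. EIF4EBP2 was also called in all 4, at 0.24, 0.22, 0.16 and 0.13. The siARNT change of EIF4H was called at both oxygen levels, at -0.15 and -0.12. Which of the 2 sets of values is nearer the RNA content of the cells was not tested.

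The exon for which EIF4H was chosen has 60 bases, or 20 codons, and keeps the reading frame. It lies at chr7:73604577-73604636 in the event files, whose genome build is not named. The exon of EIF4H in GENCODE 29 with the same length and the same flanking introns, of 328 and 4434 bases, lies at chr7:74190247-74190306 in GRCh38. EIF4H-201, with the exon, codes for 248 codons and EIF4H-202, without it, for 228, counted without the stop codon. The 2 forms are printed as mRNA, from 40 bases before the exon to 40 after it, so that the difference between the forms can be read, with the exon in capitals.
EIF4H with the exon: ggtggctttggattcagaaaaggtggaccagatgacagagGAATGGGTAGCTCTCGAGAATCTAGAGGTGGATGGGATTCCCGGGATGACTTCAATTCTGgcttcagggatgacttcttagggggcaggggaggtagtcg
EIF4H without the exon: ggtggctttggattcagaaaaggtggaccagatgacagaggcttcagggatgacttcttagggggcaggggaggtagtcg

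The share of junction reads that include the exon (percent spliced in, PSI) was 21.9, 18.5 and 22.0% in normoxia siControl and 10.6, 9.22 and 10.2% in hypoxia siControl. With siARNT it was 19.4, 18.5 and 21.5% in normoxia and 13.1, 10.1 and 12.5% in hypoxia. All 6 hypoxic libraries were below all 6 normoxic ones. These values chose the gene, so they carry no test: the difference of the means was -10.8 points in siControl and -7.92 points in siARNT. Groups did not overlap in 11.6% of all events tested for hypoxia in siControl and in 10.1% for hypoxia in siARNT.

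The 2 junctions of the EIF4H exon were read unequally. In normoxia siControl replicate A, 606 reads joined the exon to the one before, 252 joined it to the one after and 1528 skipped it. In hypoxia siControl replicate A the counts were 273, 93 and 1542. Taken alone, the upstream junction gave a mean share of 27.3% with siControl and 25.6% with siARNT in normoxia, and of 14.3 and 16.9% in hypoxia. The downstream junction gave 13.0, 13.0, 5.35 and 6.26% in the same order, so both were lower in hypoxia. Read coverage of the exon was 10.2 to 13.4% of that of the exon before it in the 6 normoxic libraries and 4.77 to 7.32% in the 6 hypoxic ones.

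**Figure D4:**
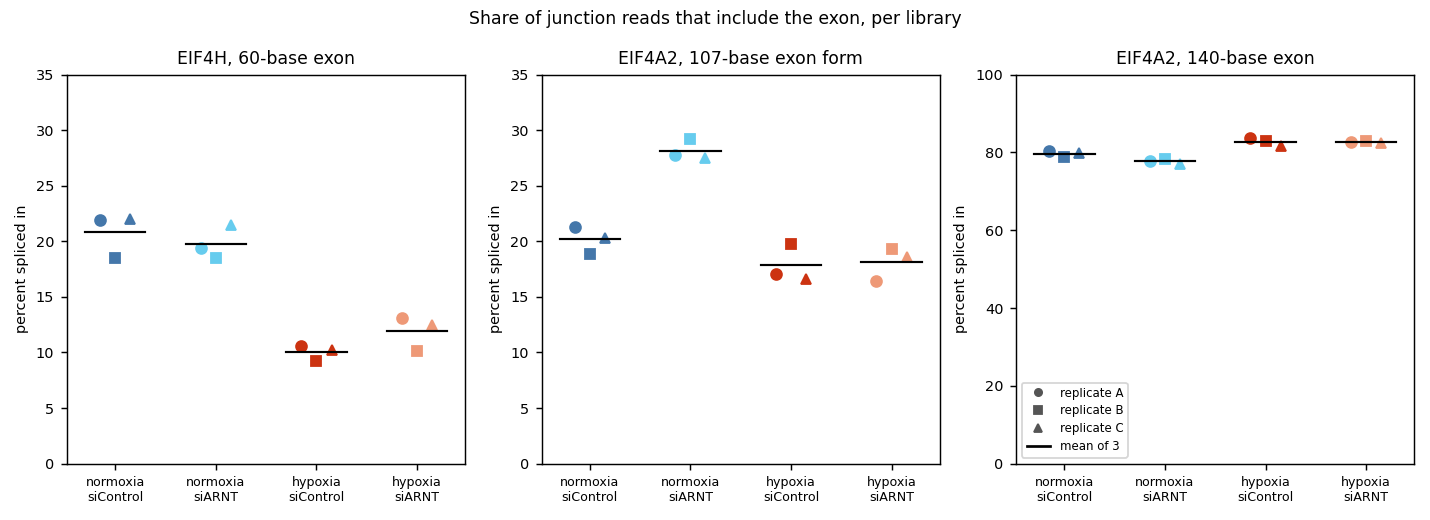
Percent spliced in of 3 exons in each library, with a bar for the mean of 3; the y axes start at 0 and end at 35 or 100%. The EIF4H exon is between 9.22 and 13.1% in the 6 hypoxic libraries and between 18.5 and 22.0% in the 6 normoxic ones, and the 107-base EIF4A2 exon is highest in normoxia siARNT at 27.5 to 29.2%.

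EIF4A2 has an exon near its 3′ end that carries a stop codon. It has 107 bases, or 111 with a later 5′ splice site, and lies at chr3:186506099-186506205 in the build of the files, matched by length to chr3:186788310-186788416 in GRCh38. In GENCODE 29 the transcript with the 107-base form, EIF4A2-202, is annotated as a target of nonsense-mediated decay, the pathway that degrades mRNAs with an early stop, and has 362 codons against 407 in EIF4A2-201. The transcript with the 111-base form, EIF4A2-223, is annotated as a retained intron and not as such a target. The stop begins at base 8 of the exon. The 2 mRNA forms are printed from 40 bases before the exon to show where the reading frame ends, with that stop codon in capitals.
EIF4A2 into the exon: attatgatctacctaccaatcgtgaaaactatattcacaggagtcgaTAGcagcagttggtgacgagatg
EIF4A2 past the exon: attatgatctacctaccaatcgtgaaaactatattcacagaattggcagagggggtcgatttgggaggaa

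The PSI of the 107-base form was 21.3, 18.9 and 20.3% in normoxia siControl and 27.8, 29.2 and 27.5% in normoxia siARNT. In hypoxia it was 17.1, 19.8 and 16.6% with siControl and 16.4, 19.3 and 18.6% with siARNT. Normoxia siARNT stood above the other 9 libraries, which overlapped each other, and the normoxic groups did not overlap in 13.9% of all events. The 111-base form had the same order, with means of 23.4% for siControl and 31.0% for siARNT in normoxia, and of 20.4 and 20.8% in hypoxia. Both forms share their first junction, whose reads count in the PSI of each, so they are not independent events. The downstream junction, which differs between the forms, gave lower shares. For the 107-base form its mean share was 8.96% with siControl and 14.1% with siARNT in normoxia, and 7.82 and 7.97% in hypoxia. For the 111-base form it was 17.0, 21.8, 14.0 and 14.5% in the same order.

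The edgeR fit over all events called neither form in any comparison, with log2 odds of 0.63 and 0.56 for knockdown in normoxia (edgeR adjusted p = 0.792 and 0.803). It called 0 of the 129 tested junction events of the 9 genes other than EIF4H in each of the 5 comparisons, with 6, 8, 8, 6 and 9 at an unadjusted p under 0.05. Of all 39622 tested junction events, 2023, 1654, 2488, 2397 and 1730 had such a p, in the same order. The edgeR fit called few events of any gene: 0.0227% for hypoxia in siControl, 0.00505% for hypoxia in siARNT, 0.0126% for knockdown in normoxia, 0.0151% for knockdown in hypoxia and 0.0278% for the interaction.

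A quasi-binomial fit, added after that was seen, called both EIF4A2 forms for knockdown in normoxia. The log2 odds were 0.61 for the 107-base form (adjusted p = 0.00417) and 0.54 for the 111-base form (adjusted p = 0.00844), with 0.328% of all events called. It also called both for hypoxia in siARNT, at -0.85 and -0.79 (adjusted p = 0.0028 for both), with 0.0328% of all events called. The first pair of calls held without any 1 library, and the second was lost without hypoxia siARNT replicate A (adjusted p = 0.0761). Over all alternatives the adjusted p ran from 0.00193 to 0.954 for the first and from 8.94e-04 to 1 for the second.

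The same fit called 0 member events for hypoxia in siControl, knockdown in hypoxia and the interaction, where it called 0.0505, 0.189 and 0% of all events. The test of the difference between the hypoxia changes of the EIF4A2 forms therefore missed the threshold in both fits (quasi-binomial log2 odds -0.59 and -0.50, adjusted p = 0.979 for both). The gene count of EIF4A2, given above, was lower with knockdown at both oxygen levels, while the share of the exon was higher with knockdown in normoxia and overlapped between the siRNAs in hypoxia.

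Farther 5′ in EIF4A2, an exon of 140 bases (chr3:186784962-186785101 in GRCh38, matched by length) was included at 80.3, 78.9 and 79.8% in normoxia siControl and at 83.7, 82.9 and 81.7% in hypoxia siControl. With siARNT it was at 77.9, 78.2 and 76.9% in normoxia and at 82.6, 82.9 and 82.3% in hypoxia. All 6 hypoxic libraries were above all 6 normoxic ones. In 11.6% of all events tested the groups did not overlap for hypoxia in siControl, and in 10.1% for hypoxia in siARNT. Neither fit called the exon (edgeR adjusted p = 0.969 in siControl and 1 in siARNT). Of the 6 GENCODE 29 transcripts without it, 0 are annotated as protein coding and 3 as targets of nonsense-mediated decay. This exon and the stop-carrying one were picked for description after their values were seen.

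In EIF4G2, a 114-base exon, or 38 codons, was also picked after its values were seen. It was included at 77.6, 77.0 and 77.6% with siControl and 79.5, 78.5 and 80.8% with siARNT in normoxia, and at 79.9, 80.4 and 80.2% with siControl and 80.9, 81.2 and 81.2% with siARNT in hypoxia. The edgeR and quasi-binomial fits did not call it in any comparison.

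The most deeply read event of each other gene was near complete inclusion. PSI was 99.5 to 100% in EIF4A1, 99.6 to 100% in EIF4A2, 99.3 to 99.8% in EIF4B, 98.7 to 100% in EIF4E and 97.2 to 100% in EIF4G1. It was 95.5 to 97.8% in EIF4G2 and 90.6 to 98.0% in EIF4G3. Of the 200 events, 60 lie in EIF4A1, 37 in EIF4A2, 33 in EIF4B, 32 in EIF4G2, 23 in EIF4G3 and 10 in EIF4G1. EIF4E and EIF4H have 2 each, EIF4EBP2 has 1 and EIF4EBP1 has 0, and 147 of the 200 passed the filter for testing, which asked for 10 reads in every library and for reads of each form in at least 3 libraries. Events left out can be deeply read, with 1 form hardly seen. The 16 tested retained introns, all in EIF4A1, EIF4A2 and EIF4G2, gave 0 calls with limma in each comparison, with 2, 3, 2, 2 and 1 at an unadjusted p under 0.05. How many of all retained introns had such a p was not counted. Over all retained introns limma called 0.0745% for hypoxia in siControl, 0.0248% for hypoxia in siARNT, 0.0497% for knockdown in normoxia, 0.0248% for knockdown in hypoxia and 0.0745% for the interaction.

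Upstream of their RefSeq start sites, EIF4B and EIF4E hold the motif CACGTG. This palindrome, the E-box, is bound by MYC and related factors. Among RefSeq windows of 250 bases before the start (GRCh38.p14, 9 of 10 members matched, all but EIF4EBP1), 4 of the 13 windows of the members had it, in EIF4B, EIF4E, EIF4H and 1 of the 3 windows of EIF4G1. Of all 35116 windows 6.3% had it. The shorter ACGTG, which CACGTG contains, and GCGTG were searched too. ACGTG was found in windows of EIF4B, EIF4E, EIF4G1 and EIF4H, and in 18.5% of all windows. GCGTG was found in windows of EIF4B, EIF4E, EIF4EBP2, EIF4G1, EIF4G2 and EIF4H, and in 32.2% of all windows. These matches are a description of letters and say nothing of binding in these cells. The stretches of EIF4B and EIF4E, the 2 members with CACGTG that were called in hypoxia, in opposite directions, are printed with that motif in capitals.
EIF4B, chr12:53006424-53006449, plus strand: ccgctataatCACGTGattgcctcat
EIF4E, chr4:98929343-98929368, minus strand: acccatcggcCACGTGaccagtcctt
EIF4E, chr4:98929190-98929215, minus strand: acatatccgtCACGTGgccagaagct
The motif begins 22 bases before the start of EIF4B and 225 and 72 bases before that of EIF4E. EIF4A2, called in both knockdown comparisons, had 0 matches in its window.

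The members were set beside 68 other genes of initiation and of the mTORC1 arm that acts on the 4E-binding proteins, of which 66 were tested. For hypoxia in siControl 24 of 66 (36.4%) were called, 4 higher and 20 lower, beside 25.3% of all genes (10.4% higher, 14.9% lower), with a median log2 change of -0.11 beside 0.02 for all genes. The list of eIF2 and eIF2B subunits, which bring the initiator tRNA and recharge eIF2, also holds EIF2A and EIF2D, which belong to neither complex. Of its 10 genes, 6 were called lower and 0 higher. Of the eIF3 subunits 4 of 13 were called lower (30.8%), and of the start site and subunit joining factors 4 of 10, with 0 called higher in both. Of all genes 14.9% were called lower and 25.3% in either direction. The lists were not tested as sets.

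DDIT4, an inhibitor of mTORC1 known as REDD1, had the largest rise of the list, from 38.0, 41.1 and 35.8 CPM in normoxia siControl to 101, 119 and 94.2 in hypoxia siControl (log2 change 1.45, edgeR adjusted p = 3.57e-05). PDCD4, which inhibits eIF4A, rose by 0.37, and EEF2K, a kinase that slows elongation, by 0.36 (edgeR adjusted p = 0.00834 and 0.00215). MTOR fell from 72.9, 78.9 and 77.2 CPM to 49.4, 49.5 and 47.6 (log2 change -0.64, edgeR adjusted p = 5.36e-05). EIF2B3, an eIF2B subunit, fell from 24.2, 24.7 and 25.1 CPM to 12.0, 11.2 and 12.8 (log2 change -1.04, edgeR adjusted p = 3.92e-06). ABCE1, which recycles ribosomes, fell by 0.64 (edgeR adjusted p = 4.04e-04).

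Hypoxia in siARNT called 0 of the 66 with edgeR, beside 4.09% of all genes, and 1 with DESeq2. ARNT knockdown in hypoxia called 25 (37.9%), 17 higher and 8 lower, beside 29.1% of all genes (14.4% higher, 14.7% lower), with a median of 0.08 beside 0.02 for all genes. Among them MTOR rose by 0.63 and EIF2B3 by 0.53, and DDIT4 fell by 1.11 (edgeR adjusted p = 3.91e-05, 3.23e-04 and 1.39e-04). The largest rise was that of PABPC4, a poly(A)-binding protein, from 69.2, 66.3 and 71.0 CPM to 219, 212 and 214 (log2 change 1.64, edgeR adjusted p = 2.65e-09). EIF2A fell by 0.60 and MKNK1, a kinase that phosphorylates eIF4E, by 0.53 (edgeR adjusted p = 6.15e-04 and 1.35e-04).

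Knockdown in normoxia called 10 of the 66, 4 higher and 6 lower, a share of 15.2% below the 20.2% of all genes, and 19 with the replicate letter as a block, with a median of 0.06 beside 0.01 for all genes. PABPC4 rose there from 72.7, 74.0 and 76.3 CPM to 206, 212 and 196 (log2 change 1.46, edgeR adjusted p = 1.79e-08). EIF3C rose by 0.62 and EIF2D by 0.29 (edgeR adjusted p = 0.0235 and 0.0485). The EIF3C call was lost without replicate A or C of normoxia siControl or B of normoxia siARNT (adjusted p up to 0.109). That of EIF2D was lost in 9 of 20 alternatives (adjusted p up to 0.181), and its value was 0.16 without replicate B of normoxia siARNT. The 8 single libraries whose removal ended it were A, B and C of normoxia siControl and of hypoxia siControl, and B of both siARNT groups. ANGEL2 fell by 0.62, EIF2A by 0.57 and EIF3M by 0.53 (edgeR adjusted p = 4.95e-04, 0.00211 and 8.46e-04). The interaction called 4 of the 66, 3 higher and 1 lower, a share of 6.06% near the 4.69% of all genes.

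**Figure D5:**
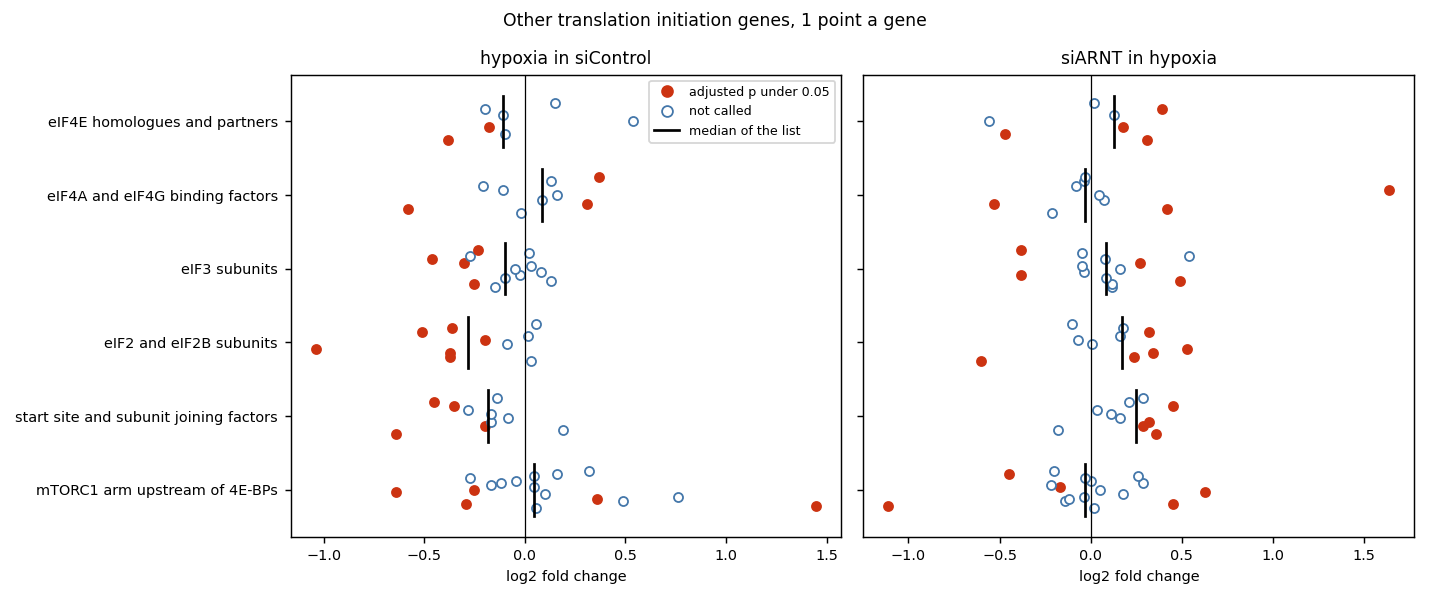
Log2 fold change of the tested genes of 6 initiation lists for hypoxia in siControl and for ARNT knockdown in hypoxia, 1 point a gene, filled where the adjusted p was under 0.05, with a line at the median of each list. In the left panel the 6 called genes of the eIF2 and eIF2B list, which also holds EIF2A and EIF2D, all lie left of 0 (list median -0.28). In the right panel the point at 1.64 is PABPC4.

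By the correlation of log2 CPM over the 12 libraries, the genes most like EIF4E were GLIPR1 (Pearson r = 0.987), PIGK (0.984) and CRY1 (0.981). Those most like EIF4H were HPS4 (0.94), GATD3 (0.936) and ZDHHC7 (0.935). These are descriptions over libraries that share groups and GC slopes, with no test.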

How the data were processed

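AsPC-1 poly(A) RNA of 12 libraries was read single-end with a stranded kit, per the labels' protocols. The authors deposited counts per gene ID, and event files of 6 kinds with junction read counts, mean coverage (a signal) and the inclusion share as a fraction, per the file headers. Trimmomatic, STAR 2.4.2a and GRCh38.p10 are named in the submitters' processing notes. The build of the event coordinates and the counter's settings are not given in the sources used here. Lines that name no gene (22.71 to 25.2% of reads) were left out. Symbols came from a reference table.

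Genes were tested with edgeR 4.0.16 (quasi-likelihood, TMM, low count filter, 12 libraries, Benjamini-Hochberg). DESeq2 1.42.0 was an alternative. Junction events with 10 or more reads in every library, and with inclusion reads and exclusion reads in at least 3 libraries each, were tested with edgeR on paired inclusion and exclusion counts, and retained introns with limma 3.58.1 (pseudocount 0.5). The gene and event fits were also run on simulated data, with outcomes not given here. Pairs of replicates differed by more than counting error (chi-square divided by its degrees of freedom 4.34 to 91.1), and 12 samples were kept. Such a difference does not show that they were separate cultures. The largest values, 91.1 and 73.3, are those of the pairs with normoxia siARNT replicate B. The smallest library has 38.53 M reads.

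Deviations of samples with the same replicate letter correlated positively between normoxia and hypoxia siControl (0.20, 0.51 and 0.20 for A, B and C). Between these groups normoxia A with hypoxia C gave 0.25 and C with A gave 0.19, so only letter B stood apart. Same-letter correlations were also positive between normoxia siControl and siARNT (0.44, 0.64 and 0.20), where different letters were not compared. They differed in sign between hypoxia and normoxia siARNT (0.75, -0.08 and -0.68) and between hypoxia siControl and siARNT (0.38, -0.06 and -0.52). The members, the initiation list and the tests were chosen with earlier results of these data known. Named genes were all members, ARNT, in each comparison up to 3 called list genes of each direction by size with a mean of 5 CPM or more, for each member the most deeply read event and any event called by the edgeR or limma fit described above, and the 3 genes most like EIF4E and EIF4H. Alternatives were other scalings, tools, filters, blocks, a GC correction and each library left out.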

Additional observations from a re-analysis of the deposited data

Results flagged for a closer look

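In 4 genes of the initiation list the hypoxia change differed between siARNT and siControl by the interaction test of edgeR, a share of 6.06% of the 66 tested beside 4.69% of all genes. The difference was 0.74 on the log2 scale for EIF2B3 (adjusted p = 0.00323) and 0.49 for MTOR (adjusted p = 0.0176). It was 0.41 for DEPTOR, an mTOR-binding inhibitor (adjusted p = 0.0495), and -1.35 for DDIT4 (adjusted p = 0.00381). DEPTOR was at 20.4, 18.7 and 21.8 CPM in hypoxia siControl and at 28.9, 27.5 and 26.6 in hypoxia siARNT, with 23.9 to 26.7 in normoxia. DDIT4 was at 40.4, 47.1 and 58.1 CPM in hypoxia siARNT. The DEPTOR call was lost in 13 of 20 alternatives (adjusted p from 0.0122 to 0.247), 9 of them fits without 1 library. That of MTOR was lost in 3 of 20: the block by transfected well (0.0567) and the fits without replicate B or C of normoxia siControl (0.0528 and 0.0512), while those of EIF2B3 and DDIT4 held in all 20.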

How the results depend on the processing

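Of 862 values of the members under alternatives, 748 kept their direction and call, 37 changed direction, 24 lost a call and 53 gained one. The cause of the differences was not tested. The lowest gene counts were those of EIF4A1 and EIF4EBP1, and the effect of depth was not tested. The GC correction called 6, 5, 5, 7 and 3 members in the order hypoxia in siControl, hypoxia in siARNT, knockdown in normoxia, knockdown in hypoxia and interaction, and with the replicate block as well 7, 4, 5, 7 and 2. Of the initiation list it called 42, 23, 27, 39 and 14 genes, and with the block 45, 25 and 31 in the first 3 and 19 in the interaction.

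For hypoxia in siARNT, members called were 3 under total count scaling, 1 under DESeq2 and 1 under the replicate block by letter, and list genes called were 2, 1 and 1. The letter block called 19 list genes for knockdown in normoxia. Where same-letter correlations differed in sign, it called EIF4EBP2 for hypoxia in siARNT (0.31, edgeR adjusted p = 0.0342) and EIF4G1 for knockdown in hypoxia (0.30, edgeR adjusted p = 0.0443). It changed no call of another member. Blocking by transfected well called 2 list genes in the interaction, and total count scaling 9. Without 1 library, members called ranged from 1 to 4 for hypoxia in siControl, 0 to 1 for hypoxia in siARNT and 1 to 3 for knockdown in normoxia. List genes called ranged from 15 to 26 for hypoxia in siControl, 6 to 15 for knockdown in normoxia and 2 to 7 in the interaction.

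Over all genes the number called for hypoxia in siARNT ran from 22 (only the groups compared) to 4117 (GC correction with block), beside 696. Under total count scaling the median of all genes was 0.104 for knockdown in hypoxia and the share of higher among called genes went from 49.6 to 63.8%, and in the interaction from 53.2 to 75.3%.

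Several values changed sign. EIF4G2 for hypoxia in siControl was -0.023 under total count scaling, -0.00086 and -0.0015 under the replicate blocks and -0.0098 with only the groups compared. Total count scaling gave 0.046 for EIF4A1 and 0.012 for EIF4G2 with knockdown in hypoxia, and 0.012 for EIF4G1 in the interaction. The GC correction, with or without the block, gave 0.24 for EIF4G1 and 0.10 for EIF4EBP1 in the interaction, where the values without it were -0.043 and -0.54. That of EIF4G1 was then called (edgeR adjusted p = 0.0155, and 0.0124 with the block). It gave -0.034 for EIF4G2 with hypoxia in siARNT, and 0.044 (0.043 with the block) with knockdown in normoxia. Junction reads gave 0.12 and 0.16 for EIF4A1 with knockdown. Without 1 library, EIF4G2 ranged from -0.03 to 0.072 for hypoxia in siControl, -0.0012 to 0.14 for hypoxia in siARNT and -0.15 to 0.024 for knockdown in hypoxia. EIF4E ranged from -0.039 to 0.11 and EIF4EBP2 from -0.0034 to 0.071 for knockdown in normoxia, EIF4EBP1 from -0.37 to 0.043 for hypoxia in siControl, and EIF4G1 from -0.13 to 0.15 in the interaction.

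For splicing, only-the-groups-compared called 1 member event for hypoxia in siControl, a retained intron of EIF4A2 with PSI of 93.9 to 100%. limma called 2 in the interaction, skips in EIF4A1 with PSI of 99.7 to 100%, and these 3 events were named after their values were seen. The quasi-binomial fit called 2 events for hypoxia in siARNT and 2 for knockdown in normoxia, and over edgeR and quasi-binomial fits without 1 library both ranged from 0 to 3. The EIF4H exon difference without 1 library was -12.0 to -10.2 points in siControl and -8.56 to -7.03 in siARNT.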

Other observations

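An exon skip of EIF4A1 was recorded in some libraries only. Its skipping junction is given as 0 reads in 9 libraries. It had 314, 372 and 309 reads in normoxia siControl replicate C, normoxia siARNT replicate C and hypoxia siARNT replicate A. The share of inclusion there was 93.6, 92.6 and 93.3%. These 3 libraries come from 3 groups. Other EIF4A1 events were below 100% in the same 3 libraries alone, such as a skip at 31.8, 29.3 and 29.6%. In EIF4B an alternative 5′ splice site was at 0% in some libraries and at 52.5 to 62.2% in the rest. Whether such a 0 means no reads, or a junction not quantified in that library, was not tested.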
